A study of Homo sapiens with 3 samples.

Results

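The genes of the mitochondrial ribosome were followed in khES3, a human embryonic stem cell line. The members are the genes whose symbol in the platform annotation is MRPL or MRPS followed by a number, with or without a letter A to C, read from probe sets that name exactly 1 gene. This rule took 75 genes on 140 probe sets, out of 41091 singly named probe sets for 19775 genes, and used no measured value. The cells were undifferentiated, no genetic change is given for them, and each of the 3 conditions was sampled after 5 h. The control culture was in complete medium, the leucine-deprived culture was in medium without leucine and the lysine-deprived culture was in medium without lysine. Each condition had 1 Affymetrix array, so no difference here has a replicate check and no p-value is given. All 3 comparisons draw on the same 3 arrays and are not independent of each other.

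The mitochondrial ribosome, or mitoribosome, makes the few proteins encoded in mitochondrial DNA, which are core subunits of the respiratory chain and of ATP synthase. Its RNAs come from the mitochondrial genome, but all of its proteins are encoded in the nucleus, made on cytosolic ribosomes and imported. Many have a counterpart in the bacterial ribosome, and the rest are found only in mitochondria. Leucine and lysine are essential amino acids, and cells that lack them slow cytosolic protein synthesis through the kinases GCN2 and mTORC1.

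The large subunit of the mitoribosome, which joins amino acids into a chain, was represented by 50 members, and the small subunit, which reads the mRNA, by 25. MRPS30 and MRPS18A carry small-subunit names but encode large-subunit proteins and were counted there. MRPL53 and MRPS24 were named only on probe sets shared with another gene and are not members. Of the 140 probe sets, 127 passed a filter on level (a mean log2 signal over the arrays at or above the median of all probe sets), and 13 were dimmer. All 75 genes had a probe set past the filter and above the floor on all 3 arrays, the floor being the 40th percentile of each array. A gene was read from its brightest probe set past the filter. Differences between arrays are on the log2 scale of the signal, so that a value of 1 stands for 2-fold. Signals of different genes' probe sets are not compared as amounts of RNA.

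The stem cell label was checked against markers. All 9 of 9 singly named pluripotency markers lay above the floor on every array, among them SOX2 (18755 in complete, 20742 in leucine-deprived and 21643 in lysine-deprived medium). The summed signal of these 9 genes was 203486, 214430 and 214098 in that order. Of 11 fibroblast and feeder-cell markers 9, 7 and 8 lay above the floor and FAP on no array, with sums of 28561, 26109 and 29949. Within that list COL1A1, a collagen gene, read 11552, 13187 and 18609 and THY1, which stem cells also express, 12735, 8348 and 7503. Of 14 markers of differentiated cells 9, 9 and 8 lay above the floor, CDX2 and MIXL1 on no array, and the sums were 1303, 1346 and 1524. The median signal of all probe sets was 82.6, 90.5 and 98.1. The ratio of the 3′ to the 5′ control probe set of ACTB, which grows as RNA or cDNA gets shorter, was 5.44, 7.55 and 11.2, and that of GAPDH 1.08, 1.23 and 1.25. These ratios were higher on both deprived arrays than on the control array, and their part and that of the marker genes in the results below was not tested.

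Promoters are shown first, since the letters in them are among the things the members share that the naming rule did not use. The set shown holds some of the members that differed most and members that carry several motifs. The windows are from RefSeq, build GRCh38.p14, and run from 120 bases before the annotated start of the gene to 30 bases after it, 5′ to 3′ on the strand of the gene. Capitals mark matches to 3 motifs on either strand: GCATGCGC, the site of NRF1 (nuclear respiratory factor), CCGGAAG, the site of ETS-family factors such as GABP, and AAGATGGCG, the site of YY1. The MRPL17 window lies on the minus strand at chr11:6683311-6683460 and holds NRF1 letters 81 and 43 bases before the start. A further NRF1 match there overlaps the one at 81 bases and was neither marked in full nor counted. The MRPS12 window is on the plus strand at chr19:38930824-38930973, with ETS letters 5 bases before the start. The MRPL16 window is on the minus strand at chr11:59810749-59810898, with ETS letters 6 bases before the start. The MRPL20 window is on the minus strand at chr1:1407264-1407413, with ETS letters 44 and 21 bases before the start. The MRPL52 window, on the plus strand at chr14:22829767-22829916, was added after its values were seen since it holds YY1 letters 98 and 64 bases before the start and ETS letters 5 bases before it. MRPS17, MRPS2, MRPL44 and MRPL12, each past 1.5-fold below complete medium after lysine removal, held 0 matches in such windows and are not printed.
MRPL17: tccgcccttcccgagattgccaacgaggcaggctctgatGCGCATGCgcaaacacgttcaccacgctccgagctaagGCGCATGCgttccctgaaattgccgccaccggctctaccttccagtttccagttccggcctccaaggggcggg
MRPS12: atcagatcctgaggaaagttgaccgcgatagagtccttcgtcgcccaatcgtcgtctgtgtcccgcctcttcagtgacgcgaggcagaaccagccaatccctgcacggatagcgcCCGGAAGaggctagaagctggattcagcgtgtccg
MRPL16: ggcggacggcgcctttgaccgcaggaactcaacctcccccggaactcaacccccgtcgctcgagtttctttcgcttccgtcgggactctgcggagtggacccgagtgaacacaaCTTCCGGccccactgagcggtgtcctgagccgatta
MRPL20: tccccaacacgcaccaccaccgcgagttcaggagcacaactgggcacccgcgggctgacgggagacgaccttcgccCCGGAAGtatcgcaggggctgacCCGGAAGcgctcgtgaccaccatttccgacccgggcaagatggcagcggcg
MRPL52: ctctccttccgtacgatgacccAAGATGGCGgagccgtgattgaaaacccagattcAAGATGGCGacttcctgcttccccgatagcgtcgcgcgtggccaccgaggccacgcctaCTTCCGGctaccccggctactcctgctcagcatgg

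Most mitochondrial ribosomal protein genes read slightly lower on the leucine-deprived array than on the complete-medium array. Their median signal was 3737 in complete, 3542 in leucine-deprived and 3477 in lysine-deprived medium. After leucine removal 60 of the 75 genes lay below 0, with a median difference of -0.16 (SD over genes 0.20, lowest -0.75, highest 0.38). Among all 12961 genes past the level filter 48.3% lay below 0, and the median was 0.01. Members are bright, the median member being brighter than 86.3% of those genes, and genes of like brightness sat a little below 0. In a level band that holds the middle 50% of members (signal 2475 to 5211, 1319 genes, a comparison chosen after the values were seen), 56.1% lay below 0 and the median was -0.03. Relative to the median of that band the members' median was -0.12. In bulk RNA, fewer cells that express a gene and less RNA of it per cell cannot be told apart. Single genes differed little. At 1.5-fold (0.58 on the log2 scale), 0 members were higher, against 9.34% of all genes whose signal exceeded the floor on each of the compared arrays, and 3 were lower, against 5.97%. No member passed 2-fold in either direction, against 4.09%. In the level band, where genes scatter less, 30 of 1319 genes were higher, 15 lower and 7 past 2-fold. The 3 lower members are a larger share than in the band, but the band holds only the middle of the members. Of the 3, MRPL2 is dimmer than the band, so the shares are not of genes of like level.

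**Figure D1:**
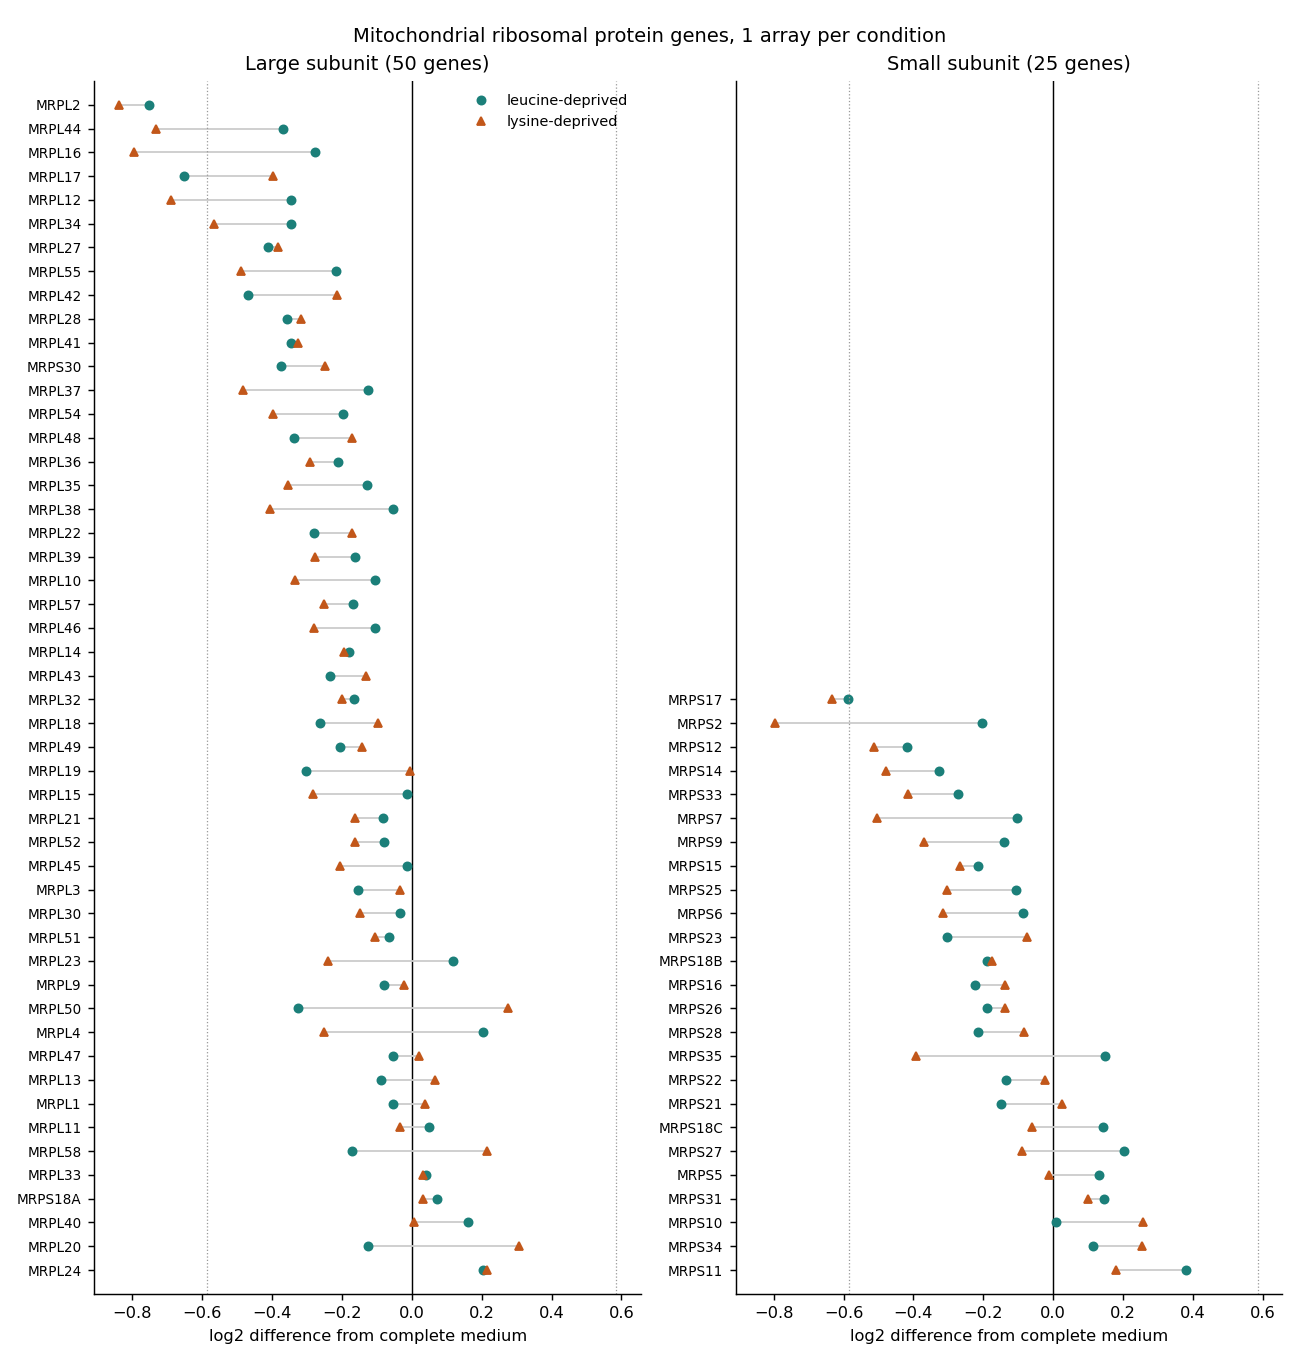
Log2 difference from complete medium of each of the 75 genes, read from its brightest probe set, with the large subunit on the left and the small subunit on the right. Circles are the leucine-deprived and triangles the lysine-deprived array, each 1 array with no error bar; dotted lines mark 1.5-fold. In each deprivation 60 genes lie left of 0 and none lies right of the 1.5-fold line.

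The 3 members past 1.5-fold after leucine removal were MRPL2, MRPL17 and MRPS17. MRPL2 encodes an rRNA-binding protein near the peptidyl transferase centre. Its signal was 470 in complete, 279 in leucine-deprived and 263 in lysine-deprived medium, a 1.68-fold and 1.79-fold lower signal on the deprived arrays. It is the dimmest of the members, and its other probe set differed by -0.36 and 0.10, so the lysine value does not carry over to it. MRPL17, a large-subunit protein with a bacterial counterpart, read 4886, 3107 and 3709, which put the leucine-deprived array lowest (1.57-fold below complete). MRPS17, which binds the small-subunit rRNA, read 5420, 3605 and 3499, close together on the deprived arrays and -0.59 and -0.63 from complete. MRPL17 and MRPS17 each rest on 1 probe set. The next lowest were MRPL42, a large-subunit protein found only in mitochondria (5995, 4331 and 5172; -0.47, its other probe sets -0.08 and 0.41), and MRPS12.

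MRPS12, the protein of the decoding centre, read lower on 3 probe sets. Its brightest probe set read 8473 in complete, 6337 in leucine-deprived and 5934 in lysine-deprived medium (-0.42 and -0.51). The next read 817, 472 and 478 (-0.79 and -0.77), and the dimmest of the 3 read 340, 162 and 158 (-1.07 and -1.11). On each of these the complete-medium array was highest and the deprived arrays lay close together. A further set, below the level filter, was under the floor on the complete and leucine-deprived arrays. On the lysine-deprived array it read 99.4, which is 0.86 above complete with values raised to the floor, the opposite direction.

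The highest members after leucine removal were MRPS11 (2805 in complete and 3654 in leucine-deprived medium, 0.38), MRPL4 (0.21), MRPL24 (0.20), MRPS27 (0.20) and MRPL40 (0.16). MRPS11 belongs to the platform of the small subunit, and its other probe set went the other way (384 and 197, -0.97). MRPL4 and MRPL24 line the tunnel through which the new chain leaves, and MRPS27 is an RNA-binding protein of the pentatricopeptide family. Of MRPL4's other probe sets 1 gave 0.22 and the other -0.25. None of these 5 differences reached 1.5-fold.

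Lysine removal gave a difference of similar size and a wider spread between genes. Again 60 of 75 members lay below 0, with a median of -0.19 (SD over genes 0.26, lowest -0.84, highest 0.31). Of all genes 49.5% lay below 0 with a median of 0.0045, and in the level band 55.9% with a median of -0.05. Relative to the median of the band the members' median was -0.15. At 1.5-fold 0 members were higher, against 13.2% of all genes, and 6 were lower, against 8.69%, which is close to the share of all genes. No member passed 2-fold, against 6.17%. In the level band, where genes scatter less, 59 of 1319 genes were higher, 55 lower and 13 past 2-fold. The 6 lower members are a larger share than in the band, but MRPL2, MRPL44 and MRPS2 among them are dimmer than the band. The shares are thus not of genes of like level. The median of the members stayed below 0 under each of 3 other scalings of the arrays, at -0.29, -0.13 and -0.16 for leucine and -0.44, -0.17 and -0.16 for lysine under median centring, quantile and cyclic loess normalization. Median centring also moved the median of all genes, to -0.12 and -0.24.

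**Figure D2:**
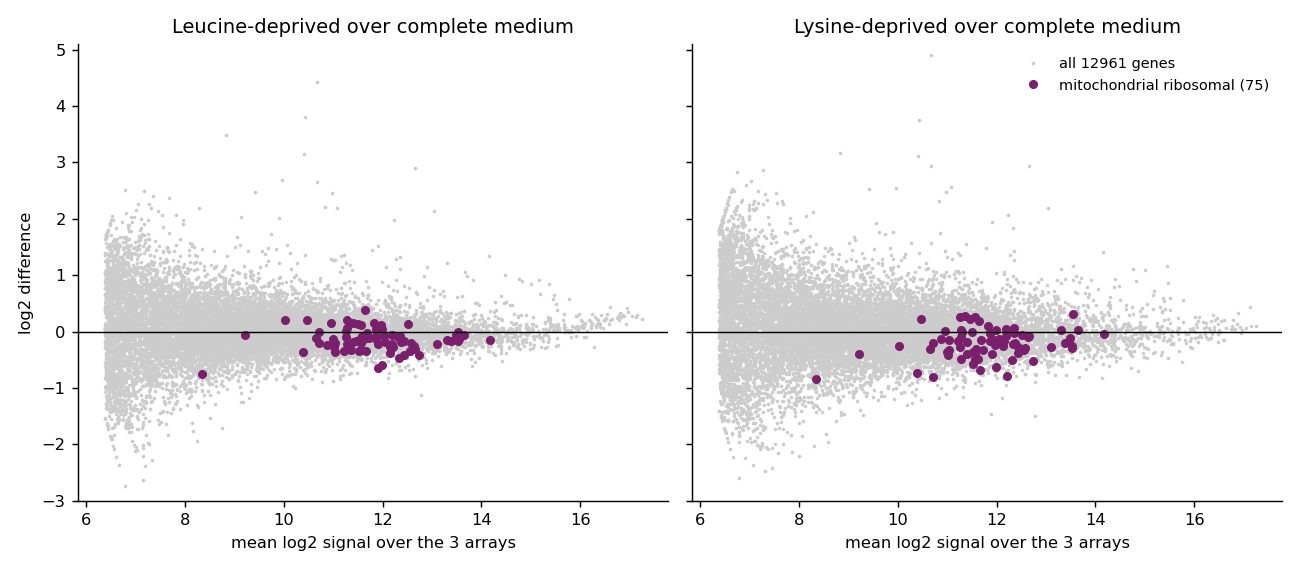
Log2 difference of leucine-deprived (left) and lysine-deprived (right) over complete medium against mean log2 signal over the 3 arrays, for 12961 genes (grey) and the 75 mitochondrial ribosomal protein genes (purple). The members sit at the bright side of the cloud, where grey points scatter little, mostly below the line at 0, with medians of -0.16 and -0.19.

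Besides MRPL2 and MRPS17, the genes past 1.5-fold after lysine removal were MRPS2, MRPL16, MRPL44 and MRPL12. MRPS2, a small-subunit protein with a bacterial counterpart, read 2101 in complete, 1825 in leucine-deprived and 1209 in lysine-deprived medium, so that the lysine-deprived array stood apart from the other two (1.74-fold below complete). MRPL16, a protein near the tRNA sites of the large subunit, read 6043, 4984 and 3483, lower on each deprived array and lowest after lysine removal (1.73-fold). Each of these 2 genes rests on 1 probe set. MRPL44, a mitochondria-only protein with a ribonuclease III-like fold, read 1738, 1345 and 1046 (1.66-fold lower after lysine removal). Its other probe set, dimmer, differed by 0.23 in the opposite direction. MRPL12 forms the stalk that recruits translation factors and is reported to bind the mitochondrial RNA polymerase. It read 4128, 3247 and 2561 (1.61-fold lower after lysine removal), and its other probe set read 87.2, 221 and 142, 0.70 above complete. Just short of 1.5-fold lay MRPL34 (3636, 2861 and 2455, or -0.57 after lysine removal), MRPS12 and MRPS7 (5880, 5471 and 4143, or -0.51). MRPL55 (-0.49) and MRPL37 (-0.48) followed closely. For MRPL2, MRPL44 and MRPL12, the direction after lysine removal depended on the probe set.

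The highest members after lysine removal were MRPL20 (11419 in complete and 14128 in lysine-deprived medium, 0.31), MRPL50 (0.28), MRPS10 (0.26), MRPS34 (0.25) and MRPL58 (0.22). MRPL20 is an rRNA-binding protein with a bacterial counterpart, and MRPL58, also called ICT1, is a peptidyl-tRNA hydrolase that frees stalled chains and became part of the large subunit. MRPL50 and MRPS34 have no bacterial counterpart. MRPS10, a small-subunit protein with one, had 3 probe sets of like brightness that differed by 0.26, 0.02 and -0.32 after lysine removal, so its direction turned with the probe set.

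The 6 brightest members in complete medium differed little on their brightest probe sets. MRPL3, which reaches towards the peptidyl transferase centre, read 19273 in complete, 17307 in leucine-deprived and 18823 in lysine-deprived medium. MRPL57 read 12956, 11534 and 10883 (-0.17 and -0.25), but its next brightest probe set was more than 2-fold lower after lysine removal (-1.23). MRPL47, which sits at the tunnel exit, read 12862, 12390 and 13044 (-0.05 and 0.02). None of the 6 passed 1.5-fold on its brightest set. MRPL15 read 12648, 12538 and 10389, lowest on the lysine-deprived array. MRPL51 (11990, 11454 and 11149) and MRPL32 (11639, 10381 and 10138), whose product is trimmed by the m-AAA protease before assembly, stood a little lower on both deprived arrays.

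Set directly against each other, the deprived arrays differed by a median near 0. For leucine-deprived over lysine-deprived the members' median was 0.05 (SD over genes 0.23), with 30 of 75 below 0. Among all genes 48.1% lay below 0 with a median of 0.02, and in the level band 45.4% with a median of 0.02. At 1.5-fold 1 member was higher (MRPS2, 0.59, against 7.75% of all genes) and 1 lower (MRPL50, -0.60, against 9.26%), and 0 passed 2-fold, against 4.74%. In the level band 19 of 1319 genes were higher, 21 lower and 2 past 2-fold. MRPS35 (2853 in complete, 3164 in leucine-deprived and 2175 in lysine-deprived medium; 0.54) and MRPL16 (0.52) followed MRPS2. MRPL20 (-0.43) and MRPL58 (-0.39) were lowest after MRPL50. MRPL50 had 2 probe sets past the filter that gave like values: the brighter read 2674, 2135 and 3237 and the next 1851, 1691 and 2641, or -0.60 and -0.64 for leucine over lysine. On each of them the lysine-deprived array was highest and the leucine-deprived array lowest.

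In each class more members lay below 0 than above it. In the large subunit 43 of 50 genes lay below 0 after leucine removal (median -0.16) and 40 after lysine removal (median -0.20). In the small subunit the counts were 17 and 20 of 25, with medians of -0.14 on both arrays. Proteins with a bacterial counterpart (45 genes) had medians of -0.15 and -0.20, and those found only in mitochondria (30 genes) -0.17 and -0.17, with 80% below 0 in each class on each array. The differences between classes were not tested. Of mitoribosomal proteins with other names, CHCHD1 of the small subunit (-0.33 after leucine and -0.52 after lysine removal), GADD45GIP1 of the large subunit (-0.25 and -0.53) and DAP3 (-0.16 and -0.17), a GTP-binding small-subunit protein, read lower. PTCD3, a pentatricopeptide protein of the small subunit, differed by 0.26 and -0.21, with other probe sets down to -0.69 after leucine removal and up to 0.05 after lysine removal. Other probe sets of DAP3 reached 0.92 and 1.05, and the other set of GADD45GIP1 0.48 and 0.64.

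How far different probe sets of a gene differ is the only error these arrays give, and it leaves out the spread between cultures. Over the 33 members with at least 2 probe sets past the filter, the SD between probe sets of a gene was 0.47 after leucine removal, 0.48 after lysine removal and 0.48 between the deprivations. Over all 5981 such genes it was 0.49, 0.57 and 0.58. Between probe sets at or above the lower edge of the level band it was smaller, 0.15, 0.26 and 0.24 over 577 genes. The next brightest probe sets, which are much dimmer (median signal 670 against 3250), gave -0.11 after leucine removal with 23 of 33 below 0, beside -0.17 and 26 of 33 for the brightest sets of the same genes. After lysine removal they gave 0.02 with 16 of 33 below 0, beside -0.16 and 26, so in these genes the lower lysine-deprived values rest on the brightest probe sets. For 14 genes whose next probe set had a log2 signal of at least 10, the medians were -0.10 (11 below 0) and -0.02 (7 below 0). For the other 19 they were -0.17 (12) and 0.10 (9). The 42 genes with 1 probe set past the filter had medians of -0.15 and -0.20, with 34 below 0 on each array.

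**Figure D3:**
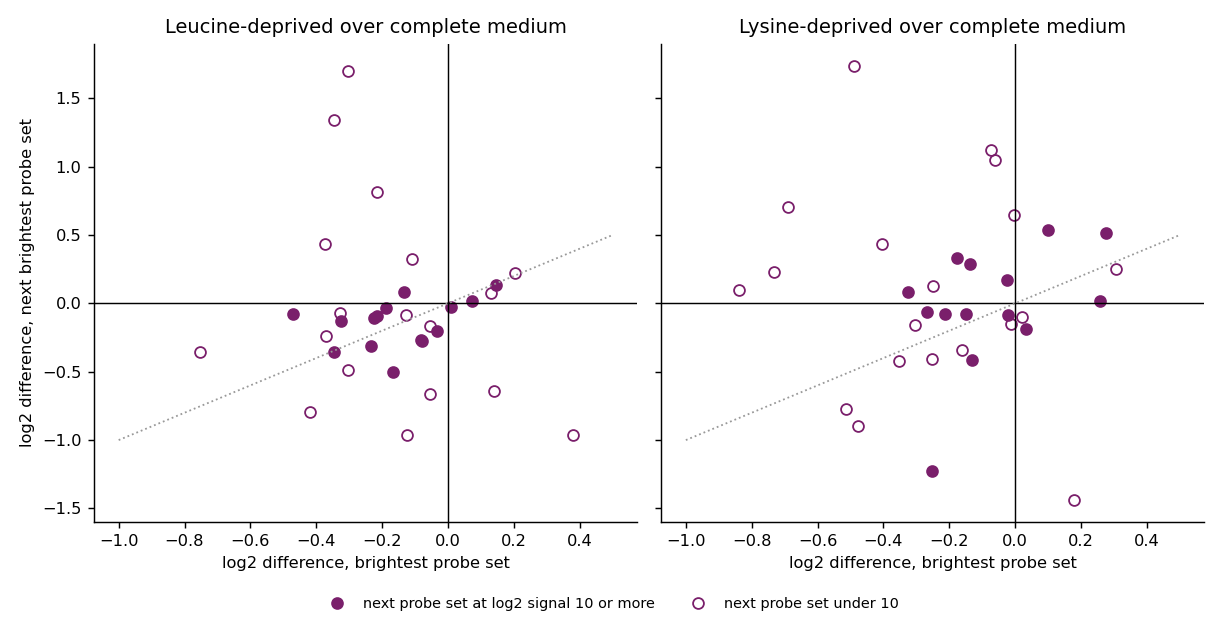
Log2 difference from complete medium of the next brightest probe set against that of the brightest, for the 33 genes with at least 2 probe sets past the level filter; each point is a gene and the dotted line marks equal values. Both probe sets lie below 0 for 20 genes after leucine removal (left) and 13 after lysine removal (right), and dim next probe sets (open circles) scatter most.

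Probe sets of the same gene differed by more than 1 (log2) for 13 members: MRPL12, MRPL19, MRPL35, MRPL38, MRPL41, MRPL42, MRPL55, MRPL57, MRPS11, MRPS15, MRPS18C, MRPS23 and MRPS25. In MRPL41, for example, the bright sets gave -0.35 (7015 and 5521) and -0.35 (2011 and 1574) after leucine removal, while a dim one gave -1.23 with a leucine-deprived signal under the floor. MRPS15 had bright sets at -0.22 and -0.10 and a dim one, of 82.9 in complete medium, at 1.20. In MRPL57 the sets that disagree are bright: beside the brightest, a set that read 3056, 2161 and 1303 differed by -0.50 and -1.23, and 1 that read 1154, 888 and 1461 by -0.38 and 0.34. For 46 of the 75 genes the probe set used has a name that ends in _s_at or _x_at, which Affymetrix gives to sets that can match several transcripts.

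Other parts of mitochondrial gene expression were set beside the members, in lists by function. Beside their counts, 48.3% and 49.5% of all genes lay below 0 after leucine and lysine removal. In the level band it was 56.1% and 55.9%. At least 1.5-fold lower were 5.97% and 8.69% of all genes. The products of nuclear-encoded respiratory chain genes work with the proteins the mitoribosome makes. Of 66 such genes, 53 (80.3%) lay below 0 after leucine removal (median -0.09) and 49 (74.2%) after lysine removal (median -0.15). NDUFA2, a complex I subunit, was at least 1.5-fold lower after leucine removal (8884, 5152 and 5940; -0.79). After lysine removal 3 were: NDUFA10 of complex I (-0.68, its other probe set 0.22), UQCRQ of complex III (-0.62) and ATP5MC1 of ATP synthase (-0.64). Both counts are smaller shares than over all genes. UQCR10 of complex III read 27898, 19471 and 19431 (-0.52 on each array), and its other probe set gave -0.13 and -0.15. Of 26 genes for factors that assemble the mitoribosome, 16 (61.5%) and 19 (73.1%) lay below 0, with medians of -0.14 and -0.23. METTL15, an rRNA methyltransferase, was at least 1.5-fold lower after leucine removal (-0.60, its other probe set 0.64), and MRM3 and TRUB2 were after lysine removal. These counts, too, are smaller shares than over all genes. MRM3, also an rRNA methyltransferase, read 2351, 1921 and 1327 (-0.29 and -0.83), TRUB2, a pseudouridine synthase, 1676, 1543 and 932 (-0.12 and -0.85). MPV17L2, an assembly factor in the inner membrane, differed by -0.54 and -0.56. The medians of the respiratory chain and assembly lists lay below 0, as that of the members did, also under the 3 other scalings.

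The factors that work with the assembled mitoribosome lay near 0 after leucine removal. Of 16 translation factor genes 6 lay below 0 after leucine removal (median 0.02, and -0.11 under median centring and 0.00 under quantile normalization) and 9 after lysine removal (median -0.08). MTRFR, a release factor homologue, read 447, 626 and 667 (0.49 and 0.58, its other probe set 0.53 and -0.80). GUF1, a GTPase, differed by 0.04 and 0.58 (its other probe set 0.45 and 0.23), and OXA1L, which inserts new chains into the inner membrane, by -0.23 and -0.55. Of 18 mitochondrial aminoacyl-tRNA synthetase and amidotransferase genes 6 lay below 0 after leucine removal (median 0.04, -0.09 under median centring) and 13 after lysine removal (median -0.17). For leucine over lysine their median was 0.24, with 4 genes at least 1.5-fold higher (SARS2, MARS2, FARS2 and CARS2) and 0 lower, beside 7.75% and 9.26% of all genes. SARS2 and MARS2 rest on 1 probe set each, while other probe sets turned the direction for FARS2 (to -0.89) and CARS2 (to -1.42). SARS2, the mitochondrial seryl-tRNA synthetase gene, read 572, 680 and 365, and PARS2, the prolyl one, 248, 302 and 440. GATB, part of the amidotransferase that makes glutaminyl-tRNA, differed by -0.41 and -0.79. Of 10 genes for transcription or replication of mitochondrial DNA 6 and 5 lay below 0 (medians -0.15 and -0.03). POLRMT, the mitochondrial RNA polymerase gene, read 1740, 1182 and 1237 (-0.56 and -0.49), MTERF1 differed by 0.31 and -0.59, and POLG, the mitochondrial DNA polymerase gene, by 0.09 and 0.48, with its other probe set at -0.21 and -0.46.

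Genes for cytosolic ribosomal proteins stood on the other side of the members after leucine removal. Of 53 with a singly named probe set 2 lay below 0 after leucine removal (RPL22 and RPL36, median of the list 0.16) and 16 after lysine removal (median 0.05, which turned to -0.20 under median centring). Their medians after leucine removal were 0.03 under median centring and quantile normalization and 0.15 under cyclic loess. RPL10A, of the large subunit, read 85303 in complete, 115633 in leucine-deprived and 97989 in lysine-deprived medium (0.44 and 0.20). Its other probe set gave 0.08 and 0.25. RPL36A (0.39 and 0.59) and RPLP2 (0.06 and 0.74) were read from dim probe sets, and RPLP2's other set gave -0.78 and -1.53. The other set of RPL36 gave 1.55 after leucine removal. Of 11 genes for regulators that bind the promoters of nuclear genes for mitochondria, or their coactivators, 2 lay below 0 after leucine removal (GABPA and PPRC1, median of the list 0.25) and 4 after lysine removal (median 0.04, -0.21 under median centring). MYC, which activates ribosome and mitochondrial genes, read 2367, 4402 and 3315 (0.90 and 0.49), with the complete-medium array lowest. GABPA, the DNA-binding GABP subunit that recognises the ETS letters above, read 804, 547 and 815 (-0.56 and 0.02), and its other probe set differed by 0.34 and 0.30. ESRRA, the estrogen-related receptor alpha gene, differed by 0.45 and 0.39, and its other probe set by 0.06 and 1.10. GABPB2, a GABP beta subunit gene, differed by 0.30 and -0.50.

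**Figure D4:**
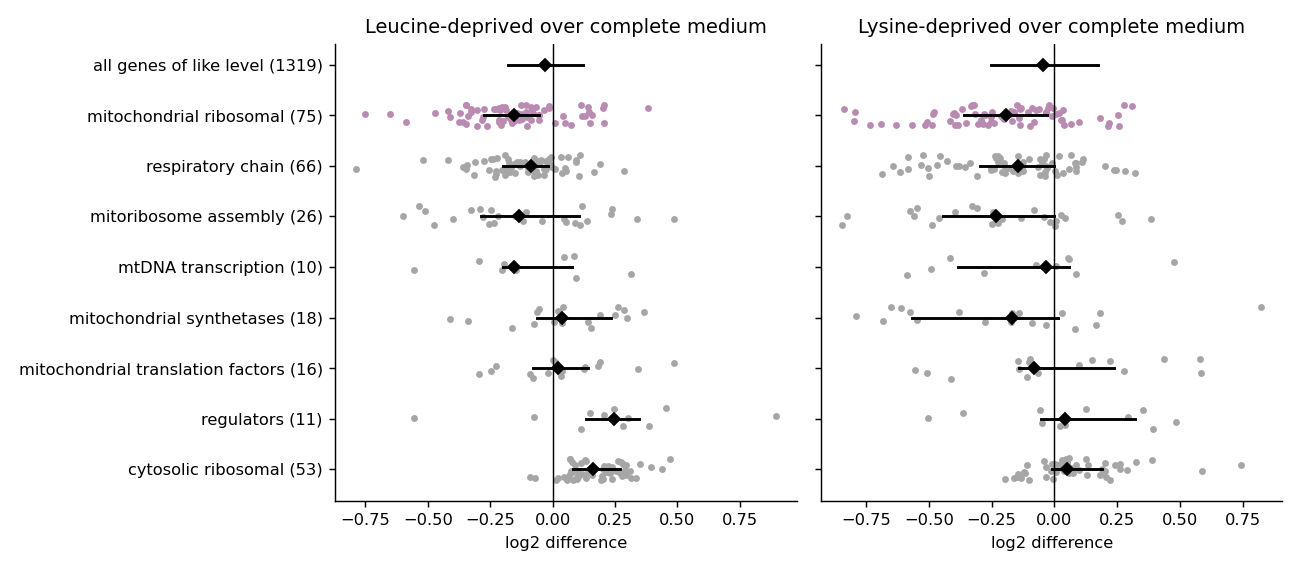
Log2 difference of leucine-deprived (left) and lysine-deprived (right) over complete medium for the members and related gene lists; points are genes (vertical scatter only separates them), diamonds are medians and bars run from the 25th to the 75th percentile, with the number of genes in brackets. For the 1319 genes of like level only the median and bar are drawn. The list labelled mtDNA transcription also holds genes for replication of mitochondrial DNA. The medians of the mitochondrial ribosomal, respiratory chain and assembly lists lie below 0 in both panels, and the cytosolic ribosomal median is 0.16 on the left and 0.05 on the right.

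In the promoters, windows of 300 bases (250 before to 50 after the start) were available for 67 of the 75 members and 15843 protein-coding genes. The members without an entry were MRPL2, MRPL10, MRPL13, MRPL15, MRPL21, MRPL23, MRPL35 and MRPS28. The ETS letters CCGGAAG occurred in 28 of the 67 windows (41.8%), against 14.2% of all windows and 18.8% of those of genes measured here. The YY1 letters AAGATGGCG occurred in 12 (17.9%), against 2.74% and 3.86%, and the NRF1 letters GCATGCGC in 6 (8.96%), against 4.26% and 5.29%. At least 1 of these 3 motifs was found in 37 windows (55.2%), against 19.5% of all windows. The share over genes measured here was not calculated for this count. Windows that held ETS and YY1 letters overlapping each other numbered 0. Of 37 ETS matches 27 began between 60 bases before and 30 bases after the start, as in the MRPS12, MRPL16 and MRPL20 windows printed above, and so did 9 of 13 YY1 matches and 4 of 7 NRF1 matches. Overlapping matches of 1 motif were counted as 1. The E-box CACGTG, bound by MYC, was in 6 windows (8.96%, against 8.88% of all) and CCAAT in 20 (29.9%, against 36.4%). The letters TGATGNAAT of the element bound by ATF4, the transcription factor that drives the response to amino acid shortage, were in 1 window, that of MRPL55 (1.49%, against 0.625%). MRPL55 read 2914, 2509 and 2078 (-0.22 and -0.49), and its other probe set, under the floor in complete medium, went the opposite way (0.81 and 1.74). All motifs were searched on both strands, and a match is a description of letters, not of a bound site.

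The differences were also set beside the motifs. With ETS letters the median difference was -0.14 after leucine and -0.09 after lysine removal, and without them -0.18 and -0.25. With YY1 letters it was -0.18 and -0.19, and without them -0.16 and -0.17. With NRF1 letters it was -0.18 and -0.17, and without them -0.16 and -0.19. With CCAAT it was -0.22 and -0.25, and without it -0.16 and -0.17. With the E-box it was -0.1649 and -0.19, and without it -0.1651 and -0.18. The direction of the gap after lysine removal thus varied between motifs. Among the printed windows MRPL16 and MRPL20 both hold ETS letters near the start, and their lysine differences were -0.79 and 0.31. MRPL52, with letters of YY1 and ETS, read 4395 in complete, 4163 in leucine-deprived and 3930 in lysine-deprived medium (-0.08 and -0.16).

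**Figure D5:**
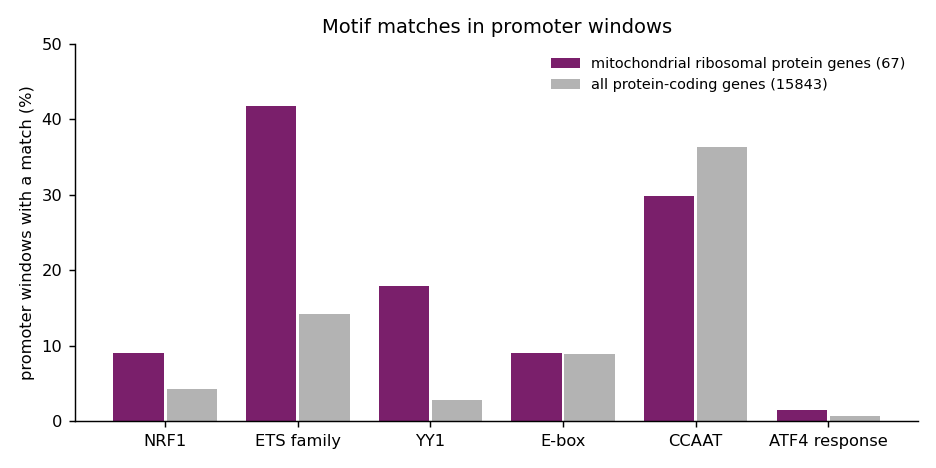
Share of promoter windows (percent) with at least 1 match to each of 6 motifs, for 67 mitochondrial ribosomal protein genes (purple) and 15843 protein-coding genes (grey); the bars start at 0. The purple bar is higher for ETS-family (41.8% against 14.2%), YY1 and NRF1 letters, near the grey one for the E-box, and lower for CCAAT.

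Members often start back to back with another gene. By RefSeq starts, 18 of 67 members (26.9%) had a neighbour on the opposite strand starting within 1000 bases upstream. The share was 10.3% of all protein-coding genes with a window, and it was not calculated over the genes measured here. In 1 such pair both genes are members: MRPL46 and MRPS11 start 320 bases apart and differed by -0.10 and 0.38 after leucine and -0.28 and 0.18 after lysine removal. MRPS12 starts 181 bases from SARS2, which differed by 0.25 after leucine removal where MRPS12 differed by -0.42, while after lysine removal both were lower (-0.65 and -0.51). MRPL27 starts 45 bases from EME1 (-0.41 and 0.07 after leucine removal), and MRPL54 starts 990 bases from APBA3, which read 0.54 and 1.10 higher where MRPL54 differed by -0.20 and -0.40. MRPL37 and CYB5RL, 137 bases apart, were lower together (-0.48 and -0.51 after lysine removal). Over the 15 neighbours that are not members and were measured, the medians were 0.00 after leucine (8 below 0) and 0.01 after lysine removal (7 below 0). Their 15 members had medians of -0.17 (12 below 0) and -0.18 (13 below 0).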

How the data were processed

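The authors deposited 1 linear signal intensity for each probe set, computed by MAS5, as the tool is named per the submitters' processing notes, whose version is not given in the sources used here. Labelling started from 100 ng of total RNA with a 3′ kit, per the labels' protocols. With 2% trimmed from each end the mean intensity of every array was 500.1: the deposited values share 1 scale, and differences in total mRNA are removed. Of 54675 probe sets 62 are controls, 41091 name 1 gene in the platform annotation, 1801 several and 11721 none here.

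Here lower values were raised to each array's 40th percentile (54.6 in complete, 56.7 in leucine-deprived and 62.4 in lysine-deprived medium), log2 was taken, probe sets with a mean at or above the median of all were kept, and a gene took its brightest kept probe set. Folds were counted where both compared arrays exceeded the floor. With 1 array per condition nothing was tested and precision is limited by the number of arrays. RefSeq's GRCh38.p14 gene table held all 75 members, and 0 symbols differed. The members and gene lists were chosen with earlier results of these data known. Genes named are the 5 highest and 5 lowest members per deprivation, the 3 highest and 3 lowest between deprivations, members past 1.5-fold, the 6 brightest in complete medium and those whose probe sets differ by more than 1, which made 35, and up to 3 genes per other list; genes behind small counts, members in a head-to-head pair, members just short of 1.5-fold and MRPL52 were named after their values were seen. The promoter windows are the first listed per gene in the RefSeq table. Leucine and lysine content of the proteins was not analysed here. Alternatives were other scalings, floors, level filters and choices of probe set. The calculations were tested on simulated data. Python 3.11.15, numpy 2.4.6, pandas 2.3.3, R 4.3.3 and limma 3.58.1 (normalization alternatives) were used.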

Additional observations from a re-analysis of the deposited data

How the results depend on the processing

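Other floors and level filters could not change a member, since each was read from its brightest probe set, above the floor. They are no check on the members. The members' medians for leucine-deprived over complete medium kept their direction under all 12 alternatives, these settings included. For the other 2 comparisons they did so under all but the next brightest probe sets of 33 genes. These gave 0.0177 after lysine removal and -0.0407 between the deprivations, with 23 and 16 genes below 0 after leucine and lysine removal, 6 past 1.5-fold after leucine removal and 9 between deprivations. Median centring gave -0.29, -0.44 and 0.17 for leucine, lysine and leucine over lysine, with 20 genes past 1.5-fold after lysine removal and 16 below 0 for leucine over lysine. It moved the median of all genes as far, to -0.12, -0.24 and 0.13, and the share below 0 from 80% to 88% and 94.7% of members and to 63.3% and 69.3% of all genes. Without probe sets whose names end in _s_at or _x_at, 39 genes remained measured, the lysine median was -0.10, 28, 25 and 19 genes lay below 0 in the 3 comparisons, and 5 passed 1.5-fold for leucine over lysine. The mean of the kept probe sets gave -0.14 for lysine. For leucine over lysine 1 gene passed 1.5-fold under quantile normalization, cyclic loess, log2(value + 32) and differences taken against genes of like level. Of single members, MRPL12 after lysine removal turned to 0.0071 with the mean of its probe sets and to 0.70 with its next probe set, which is also what is left without _s_at and _x_at sets, and MRPL2 and MRPL44 turned to 0.10 and 0.23 with their next probe sets. The 1167 recalculated differences of single members include those under other floors and level filters, where none could change. Of the 1167, 1120 moved by less than the SD between probe sets. The sign changed in 75, of which 26 came with the next probe set, 25 with the mean of probe sets and 10 with median centring, and 5 were of differences past 1.5-fold, those just given. The cause of these changes was not tested. The comparison with genes of like level and the counts below 0 were chosen after seeing the data. Leaving out genes no longer counted as mitoribosomal took out no gene, because the platform names that gene KGD4, and was not run. No paired analysis was possible because each condition has 1 array. The median signal of the next probe sets was 670, against floors of 54.6 to 62.4.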
